A study of Homo sapiens with 12 samples.

Results

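The response to dexamethasone (Dex), a synthetic glucocorticoid, was measured in cells with the S134A-GR form of the glucocorticoid receptor. It was read as the difference between 3 Dex libraries and 3 vehicle libraries across all genes. These are 6 of the 12 RNA-seq libraries of the series and were taken by their labels. Of 19907 genes with a value, 15957 entered the test, namely those that reached 10 in 3 or more of the 12 libraries. All libraries came from MDA-MB-231, an established human line of triple-negative breast cancer, which makes neither oestrogen nor progesterone receptor and has no HER2 amplification. The series title names phosphorylation of the receptor serine that the S134A substitution replaces with alanine, and PDK4 as a gene it induces. The 4 groups were WT-GR vehicle, WT-GR Dex, S134A-GR vehicle and S134A-GR Dex, with 3 libraries each. Every group was first starved of serum for 18 h in IMEM with 1% DCC and then held for 6 h with vehicle or with 1 µM Dex. The labels do not say how either receptor form was introduced, whether a line is 1 clone, whether endogenous receptor remained, or whether replicates were grown as separate cultures. The p-values therefore measure only the spread between these libraries, which may be technical.

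The glucocorticoid receptor is a ligand-activated transcription factor. Without hormone it waits in the cytoplasm with chaperones, and with hormone it enters the nucleus, binds DNA as a dimer on palindromic sites and recruits coactivators to nearby genes. It also lowers the output of NF-kB and AP-1, which drive inflammatory genes. Its best known direct targets include brakes on its own signal, inhibitors of inflammatory kinases and genes that switch fuel use from glucose to fat.

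Values are normalized read counts, in which reads are scaled for the depth of each library, so that levels can be compared between libraries but not between genes of different length. Recovered totals were 82.4 to 100.6 M reads in the 6 S134A-GR libraries. The gene names of the Dex values were restored by line order, on which every result below rests. In a principal component analysis of the 6 libraries the first component, with 47.7% of the variance, separated Dex from vehicle. On the second, with 15.8%, S134A-GR Dex replicate 1 stood at 32.2 while the other Dex libraries stood at -20.95 and -15.2, and it is left out in turn below. All 13 markers expected in this line were expressed. ESR1, the oestrogen receptor gene, was at 0 to 5.66 in the 6 libraries, and ERBB2, the HER2 gene, at 10369 to 12005. GATA3 (1032 to 1574), CLDN7 (930 to 1136), EPCAM (315 to 436) and FOXA1 (226 to 303), expected low or off like ERBB2, were expressed. CDH1 (0 to 12.5), CLDN3 (8.45 to 43.4), KRT5 (0 to 6.34) and KRT14 (0 to 4.71) were low. Of the fibroblast markers COL1A1 was at 1714 to 2370, PDGFRB at 1625 to 1952 and COL1A2, the next highest, at 4.23 to 16.0. Summed blood cell markers stood at 34.9 to 38.5 in vehicle and 20.7 to 22.2 with Dex, with HBA1 at 0 in all 6 libraries.

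Dex changed 2513 of the 15957 genes tested, 15.7% of them (limma, Benjamini-Hochberg adjusted p under 0.05). Of these, 1275 genes (7.99%) rose and 1238 (7.76%) fell. Most changes were small, since 1636 of the called genes moved by less than 1.5-fold. The median log2 change was 0.40 among genes that rose, -0.41 among those that fell and -0.02 over all genes tested. Large changes were mostly rises, with 245 genes higher and 168 lower by at least 2-fold, 87 and 24 by at least 4-fold, and 33 and 3 by at least 8-fold. The 3 Dex values lay wholly above the 3 vehicle values for 18.2% of genes and wholly below for 20.4%. Array weights, which let noisy libraries count less, raised the number of calls to 5116, and with them 44 of the 86 counts of risen or fallen list members moved by more than 1.5 times.

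**Figure D1:**
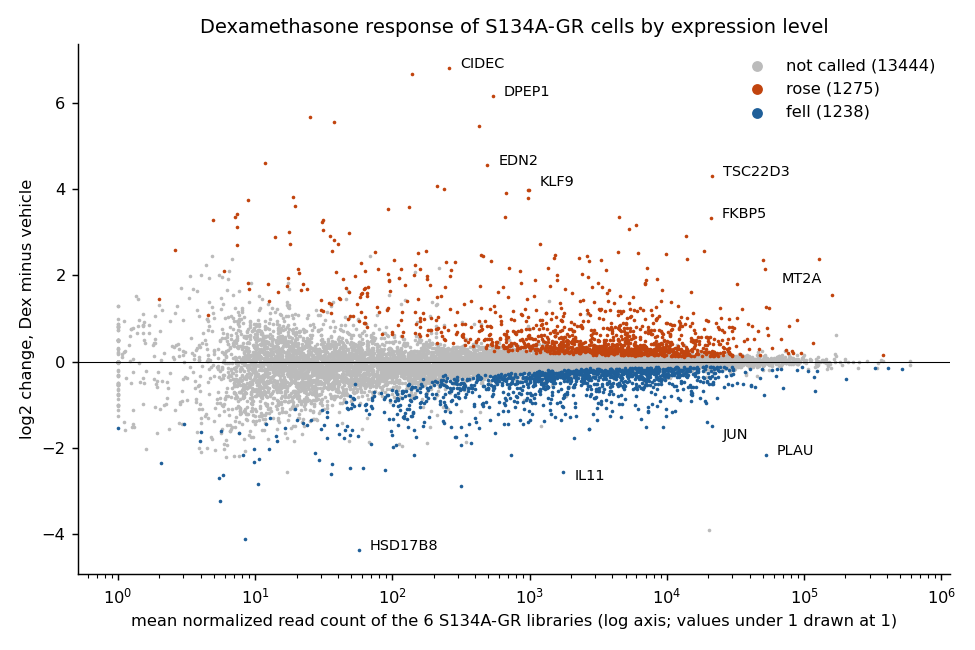
Each point is 1 of 15957 genes, with the mean normalized read count of the 6 S134A-GR libraries on a log x axis and the log2 change, Dex minus vehicle, on the y axis. Genes that rose (1275) are red, genes that fell (1238) blue and the others grey, and the labelled genes are described in the text, with CIDEC at 6.81 and PLAU at -2.17.

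Among genes that vehicle cells barely expressed, Dex switched on a small set. CIDEC, which joins lipid droplets into larger ones (chromosome 3, 9866710 to 9880253, GRCh38), had values of 5.66, 4.05 and 1.78 in vehicle and 452, 494 and 592 with Dex. IP6K3, a kinase of inositol phosphates, went from 5.66, 0 and 1.78 to 279, 231 and 309. The log2 changes on the log2(value + 1) scale, which understates changes of low genes, were 6.81 and 6.68 (limma adjusted p = 4.41e-08 and 4.67e-07). Both were under 10 in every vehicle library and far above it in every Dex library. By the same measure TUBA3E, a tubulin, was at 0, 1.01 and 0.891 in vehicle and 65.5, 66.5 and 90.4 with Dex, and GUCY2D, a membrane guanylate cyclase, at 5.66, 5.07 and 4.45 and 53.9, 61.3 and 53.7. The transcript HS1BP3-IT1 stood at 2.83, 9.12 and 7.13 and 50.7, 58.6 and 58.4. These genes were among the 6 that were under 10 in all vehicle libraries and at 50 or more in all Dex libraries, and the search in the other direction found no gene.

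Several other genes rose more than 10-fold. Vehicle means were low for DPEP1, RHOXF1-AS1 (14.3), CALCR (19.7) and SAA1 (23.4), so that their folds rest on few vehicle reads. DPEP1, a membrane dipeptidase, rose from 14.8 ± 6.62 to 1069 ± 84.5 (mean ± SD, n = 3 here and below), 72.3-fold. EDN2, which encodes the vasoconstrictor peptide endothelin 2, was counted at 46.2, 30.4 and 41.0 in vehicle and 909, 969 and 952 with Dex, a log2 change of 4.57 ± 0.147 (SE; limma adjusted p = 6.43e-11). TSC22D3, whose protein GILZ binds NF-kB and AP-1, had values of 1979, 2246 and 1954 in vehicle and 40399, 40405 and 40849 with Dex, a 19.7-fold rise with the lowest p of all genes tested (limma adjusted p = 4.94e-15). The Dex values of these genes were close to one another. The rule for the largest rises required them to lie above all vehicle values. KLF9, a Krüppel-like transcription factor, rose from 117 ± 12.8 to 1868 ± 36.7, 15.9-fold. SAA1, an acute-phase protein, rose 17.0-fold, ALPP, placental alkaline phosphatase, 15.7-fold, KDR, the main VEGF receptor, 14.9-fold and CPNE7, a copine, 14.1-fold. CALCR, the calcitonin receptor, rose by 3.59 on the log2 scale, the noncoding RNA RHOXF1-AS1 by 3.53 and SCNN1A, a subunit of the epithelial sodium channel, by 3.36. SAA1, ALPP and the metallothioneins below have close paralogs, and their counts are uncertain where reads could be split between copies. GTPBP6 (log2 change 5.47) and GGNBP2 (4.01) also met the rule for the largest rises and are uncertain, with SEs of 1.28 and 0.971 and, for GTPBP6, a copy on each sex chromosome.

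KDR is also a gene of endothelial cells. The summed endothelial markers were 1472 to 1598 in vehicle and 2112 to 2358 with Dex. Of these 5 markers PECAM1 rose by 0.83 and VWF fell by 1.17 on the log2 scale, and the defining CDH5, TEK and CLDN5 stayed under 50 in all 6 libraries. All libraries came from the MDA-MB-231 line, as given above, and the part of these markers in the rise of KDR was not tested. In a bulk sample, more cells that express a gene and more RNA per cell cannot be told apart.

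Among the 15 largest falls, IL11, a cytokine of the interleukin 6 family, came after the uncertain HSD17B8, with values of 2928, 3083 and 3050.4 in vehicle and 510.4, 496 and 513 with Dex, 5.96-fold lower (limma adjusted p = 8.92e-12). IL1B, the pyrogenic interleukin 1 beta, fell from 1207 ± 86.7 to 266 ± 24.6. PLAU, the urokinase that activates plasminogen at the cell surface (chromosome 10, 73908832 to 73917494, GRCh38), had values of 85103, 87259 and 87604 in vehicle and 18609.6, 19305 and 19731 with Dex, 4.51-fold lower (limma adjusted p = 2.12e-13). The rule for the largest falls admitted only genes whose 3 Dex values lay below the 3 vehicle values. MAP2K6, a kinase that activates p38, fell by 2.51 on the log2 scale, LGR5, a receptor of R-spondins, fell by 2.46, the cAMP phosphodiesterase PDE4B fell by 1.76, the sphingosine phosphate exporter SPNS2 fell by 1.77 and the ETS transcription factor SPDEF fell by 1.75. LONRF2 fell by 2.17, the small GTPase RAB7B fell by 1.97, the protocadherin PCDH18 fell by 1.93, and the noncoding RNAs LINC01443 and LOC100507600 fell by 1.94 and 1.90. HSD17B8 (102, 98.3 and 108 in vehicle, 0, 31.5 and 2.83 with Dex) and RRN3 (329.9, 796 and 580.0 and 225, 279 and 47.1) met the same rule but varied widely between libraries. Their calls were lost without S134A-GR vehicle replicates 2 or 3 or Dex replicate 3, left out one at a time, and that of HSD17B8 also without vehicle replicate 1 or Dex replicate 1.

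**Figure D2:**
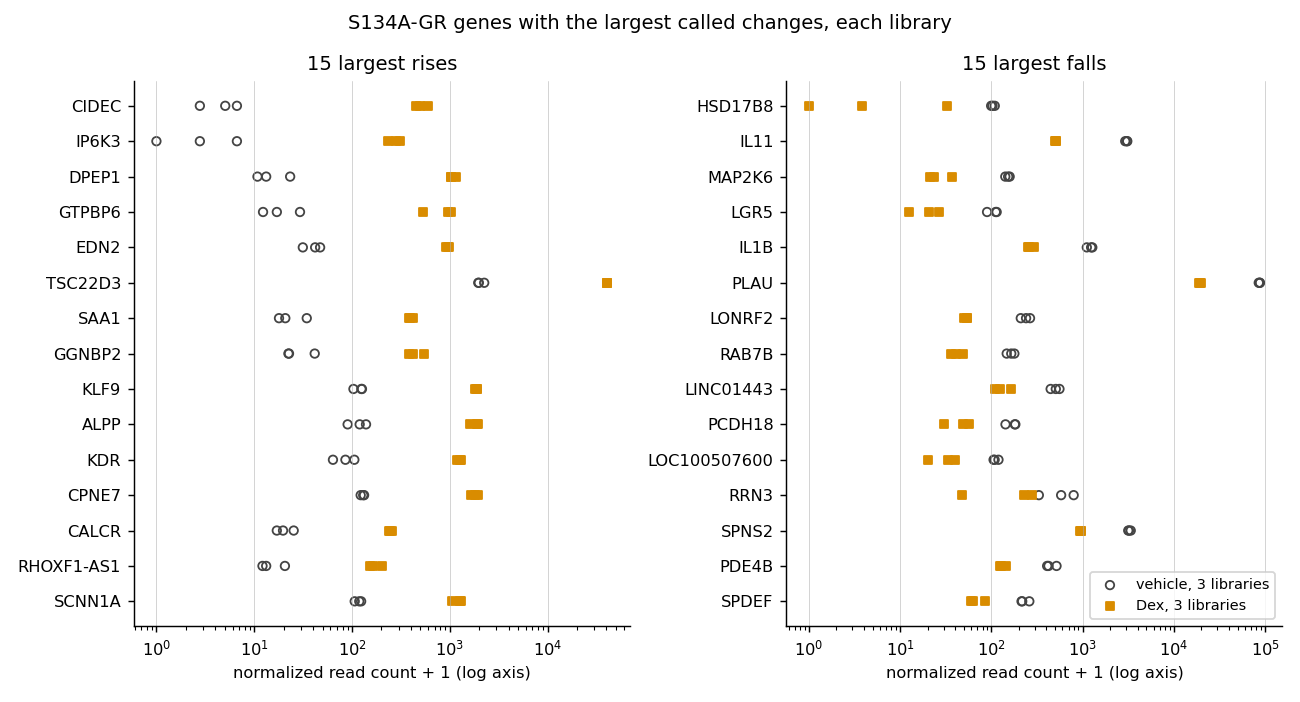
Normalized read count plus 1 on a log x axis for the 15 genes that rose most (left) and fell most (right), with open circles for the 3 S134A-GR vehicle libraries and filled squares for the 3 Dex libraries. In every row the circles and squares do not overlap, as the choice of genes required. TSC22D3 lies at 1954 to 2246 in vehicle and 40399 to 40849 with Dex, and HSD17B8 and RRN3 show the widest spread among the falls.

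In absolute reads a few abundant genes held a sizeable part of the change, though most of it lay in the other called genes. Taken at any fold, the 10 largest gains held 22.4% of all reads gained by risen genes, and the 10 largest losses held 21.3% of all reads lost by fallen genes. The metal-binding metallothionein MT2A rose from 81393 ± 5685 to 236795 ± 13331 and its neighbour MT1E from 16231 ± 836 to 83479 ± 2811. AKAP12, a scaffold for protein kinases A and C, rose 4.42-fold, ERRFI1, an inhibitor of the EGF receptor, 2.36-fold, the matrix protein THBS1 2.42-fold, ANKRD1, a target of YAP, 3.51-fold and the chromatin reader ZMYND8 2.34-fold. FKBP5, a co-chaperone that lowers hormone binding by the receptor, had values of 3766, 3762 and 3732 in vehicle and 37722, 37845 and 37962 with Dex, 10.1-fold. Among genes that changed at least 2-fold, the largest losses after PLAU were those of JUN, an AP-1 subunit, with 31362, 31396 and 31315 in vehicle and 10759, 11022 and 11366 with Dex, and TMEM158, from 28232 ± 779 to 10747 ± 923. G0S2, an inhibitor of the lipase ATGL, fell 2.84-fold, the semaphorin SEMA7A 2.23-fold, the death receptor TNFRSF21 2.25-fold, the adhesion protein AMIGO2 2.41-fold, SYNJ2, an inositol phosphatase, 2.15-fold, the secreted hormone STC1 2.86-fold and IRF2BPL 2.04-fold. With TSC22D3 these are among the 20 genes that gained or lost most at 2-fold or more. That choice admitted only genes whose groups did not overlap.

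The promoters of genes that rose were searched for the letters of the receptor's binding site. RefSeq windows (GRCh38.p14) of 300 bases, from 250 before to 50 after each annotated start, matched 12095 of the 15957 genes, with 17465 windows since a gene can have several starts. The full palindrome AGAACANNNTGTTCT was in no window of a tested gene and in 1 of the 35116 windows of the whole table. The shorter core GNACANNNTGTNC, which reads the same on both strands and can share letters with a half-site, was in 10 of 1699 windows of genes that rose (0.589%), 5 of 1437 of genes that fell (0.348%) and 51 of all 17465 (0.292%). The half-site AGAACA, or TGTTCT on the other strand, was in 9.42% of windows of genes that rose, 12.9% of those that rose at least 2-fold, 10.02% of those that fell, 11.8% of those that fell at least 2-fold and 10.1% of all. A match is only a run of letters in this window. Sites of the receptor far from a start were not searched. The cores of 4 genes that rose and of 2 that fell are shown with up to 20 bases on each side, all before the start and with the core in capitals. These promoters were chosen after the values were seen, that of TXNIP through a list compiled with results of these data known. ADAM8 and EVA1A set falling genes beside rising ones.
GPR1, chr2:206213520-206213572, minus strand: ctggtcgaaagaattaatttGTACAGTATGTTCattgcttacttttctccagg
PPARGC1A, chr4:24473035-24473087, minus strand: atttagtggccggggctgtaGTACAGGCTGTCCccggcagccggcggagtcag
TXNIP, chr1:145996722-145996774, minus strand: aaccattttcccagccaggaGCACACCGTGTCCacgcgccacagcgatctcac
MAP3K6, chr1:27367081-27367133, minus strand: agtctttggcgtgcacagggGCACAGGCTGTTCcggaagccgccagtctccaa
ADAM8, chr10:133277022-133277074, minus strand: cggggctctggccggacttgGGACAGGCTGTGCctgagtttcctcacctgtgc
EVA1A, chr2:75569724-75569776, minus strand: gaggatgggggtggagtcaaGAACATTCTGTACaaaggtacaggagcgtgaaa
GPR1, a receptor for chemerin, rose from 514 ± 16.6 to 1409 ± 100.3, and PPARGC1A, the coactivator PGC-1 alpha of mitochondrial genes, from 203 ± 4.10 to 538 ± 9.02. TXNIP, which restrains glucose uptake, rose by 0.94 on the log2 scale and the kinase MAP3K6 by 0.78. ADAM8, a surface metalloprotease, fell by 0.69 and EVA1A fell by 0.85.

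Of the 42 genes with a window that either rose most or rose and belong to the glucocorticoid-induced list below, TXNIP alone held a core. A half-site was in at least 1 window of 10 (23.8%), beside 13.06% of all tested genes with a window. These 42 genes were chosen with their values known, and a gene with more starts has more windows to match, so the 2 shares are no test. By window, the shares given above were 9.42% for genes that rose, 12.9% for those that rose at least 2-fold and 10.1% for all. The 250 bases before an annotated start are shown for CIDEC, which rose most, and for PDK4, which the series names, with the half-site in capitals.
CIDEC, chr3:9878813-9879062, minus strand: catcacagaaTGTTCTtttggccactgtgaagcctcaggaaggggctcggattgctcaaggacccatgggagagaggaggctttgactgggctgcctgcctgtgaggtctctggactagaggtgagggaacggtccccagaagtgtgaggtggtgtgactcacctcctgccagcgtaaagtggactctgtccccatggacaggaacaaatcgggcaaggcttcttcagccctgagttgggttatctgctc
PDK4, chr7:95596517-95596766, minus strand: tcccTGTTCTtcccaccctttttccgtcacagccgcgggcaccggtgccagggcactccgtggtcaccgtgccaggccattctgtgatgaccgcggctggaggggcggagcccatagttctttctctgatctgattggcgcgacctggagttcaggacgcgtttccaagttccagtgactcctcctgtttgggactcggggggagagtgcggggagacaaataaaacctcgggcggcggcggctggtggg
In CIDEC the half-site begins 240 bases before an annotated start that lies inside the gene span given above. In PDK4 it begins 246 bases before the start.

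The receptor gene itself did not pass the test. NR3C1 was counted at 8516, 8971 and 8959 in vehicle and 8354, 7529 and 7469 with Dex, a log2 change of -0.18 ± 0.0762 (limma adjusted p = 0.145). It passed with only the 6 S134A-GR libraries in the fit (limma adjusted p = 0.0464) and with array weights (limma adjusted p = 0.00174). The 3 Dex values lay below the 3 vehicle values, as they did for 20.4% of genes. In WT-GR cells the log2 change was -0.32 (limma adjusted p = 0.00673). The S134A-GR change minus the WT-GR change was 0.14 on the log2 scale (limma adjusted p = 0.497). A gene count cannot show a substitution of 1 residue, so these values do not check the receptor labels.

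Of 47 tested genes in a list of textbook glucocorticoid-induced genes, 39 rose and 1 fell, beside 7.99% and 7.76% of all genes. The median log2 change of the list was 1.27 beside -0.02 over all genes. The list was compiled with results of these data known and is no independent evidence of its direction. DUSP1, which switches off MAP kinases, was at 3247, 3255 and 3133 in vehicle and 23368, 24371 and 24770.4 with Dex, 7.53-fold. PER1, a repressor in the circadian clock, rose from 1840.2 ± 123 to 10523 ± 543. SGK1, a kinase that keeps sodium channels at the membrane, rose 4.08-fold, CEBPD, a transcription factor of the acute-phase response, 4.07-fold and BIRC3, an inhibitor of apoptosis, 3.10-fold. ANGPTL4, an inhibitor of lipoprotein lipase, rose 9.02-fold, KLF15 5.04-fold and ITGA10, a collagen-binding integrin, 5.04-fold. ADAMTS1, a matrix protease, was the member that fell, from 1362 ± 73.8 to 613 ± 26.5. Among the 7 members that did not pass, IGFBP1, which binds insulin-like growth factors, was at 7823, 7860.3 and 7169.8 and 8056, 8507 and 8391 (limma adjusted p = 0.316). The counts of 39 and 1 stayed the same when any 1 of the 6 libraries was left out.

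PDK4, which phosphorylates and inhibits pyruvate dehydrogenase and so spares glucose (chromosome 7, 95583499 to 95596516, GRCh38), had values of 449, 538 and 488 in vehicle and 2218, 2157 and 2322 with Dex. Every Dex value was more than 4 times every vehicle value, and the log2 change was 2.18 ± 0.0795 (limma adjusted p = 2.06e-10). Its response differed from that in WT-GR cells by -0.09 ± 0.112 (SE; limma adjusted p = 0.683).

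Other genes of fuel choice moved in both directions. In a list of 50 tested genes for pyruvate, glycogen and fuel switching, 6 rose and 8 fell, beside 7.99% and 7.76% of all genes. Besides PDK4 and PPARGC1A on the rising side, PDP1, the phosphatase that opposes the PDK kinases, fell from 8246 ± 318 to 5648 ± 175. HK2, the first kinase of glycolysis, fell by 0.54 on the log2 scale, PFKFB3, which makes its strongest allosteric activator, fell by 0.59 and the glucose transporter SLC2A12 fell by 0.97. Genes of lipid droplets and lipolysis rose in 9 and fell in 8 of 41 cases, beside the same shares of all genes. PLIN2, a droplet coat protein, was at 6818, 7165 and 6869.6 in vehicle and 17780.2, 16689 and 16684 with Dex, while its relative PLIN4 fell from 337 ± 21.4 to 129.8 ± 13.1 and the endothelial lipase LIPG from 4454 ± 121 to 1728 ± 28.7. With G0S2, the droplet and lipolysis genes thus held members that rose and members that fell by more than 2-fold.

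In the list of steroid, amine and peptide metabolising enzymes 7 of 43 rose and 8 fell, beside 7.99% and 7.76% of all genes. MAOA, which oxidises serotonin and noradrenaline, rose from 1383 ± 103 to 4912 ± 164 and ALOX15B, a lipoxygenase, by 1.92 on the log2 scale. ALPPL2, a close paralog of ALPP, was at 0, 0 and 3.56 in vehicle and 12.7, 15.8 and 12.2 with Dex. Amino acid supply genes rose in 7 and fell in 3 of 36 cases, beside the same shares of all genes. SLC7A2, a transporter of arginine and lysine, was at 1329, 1209 and 1329 in vehicle and 8155, 7246 and 7276 with Dex, 5.86-fold. SLC38A4, a transporter of neutral amino acids, rose 4.52-fold, SLC1A3, a glutamate transporter, 1.94-fold, SLC38A2 1.69-fold and SLC38A1 1.47-fold, whereas SLC7A11, which imports cystine in exchange for glutamate, fell 1.54-fold.

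Of 17 tested metallothionein and zinc transport genes 6 rose, among them the 4 metallothioneins that passed, and 1 fell, beside 7.99% and 7.76% of all genes. These small proteins bind zinc and copper and are encoded side by side on chromosome 16. MT1X was at 4564, 4687 and 4261 in vehicle and 21342, 24214 and 24743 with Dex, 5.20-fold, and MT1G at 39.6, 69.9 and 33.9 and 155, 204 and 172. The plasma membrane zinc importer SLC39A10 rose by 0.37 on the log2 scale. SLC30A1, a zinc exporter, was the gene that fell, with a log2 change of -0.46 ± 0.113 (limma adjusted p = 0.0115), and its call was lost when S134A-GR vehicle replicate 1 was left out, and likewise Dex replicate 2.

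Krüppel-like factors, zinc finger proteins that bind GC-rich DNA, rose in 9 of 16 cases beside 7.99% of all genes. KLF15, a metabolic regulator, was at 161, 171 and 184 in vehicle and 787, 873 and 938 with Dex, and KLF7 at 816, 877 and 861 and 2837, 2715 and 2664. For both the lowest Dex value was more than 3 times the highest vehicle value. KLF6 rose from 20589 ± 329 to 35703 ± 79.3. KLF2, a factor of quiescent endothelium and T cells, was the 1 member that fell, fell by 0.74, and its call was lost without S134A-GR vehicle replicates 1 or 2 or Dex replicates 1 or 3. KLF8 (log2 change 1.68) was also called, at 3.77, 1.01 and 8.02 in vehicle and 13.7, 8.75 and 18.8 with Dex, and its call was lost without any 1 of the same 4 libraries and in edgeR.

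Other transcription factors of steroid and stress responses moved both ways, 15 up and 17 down among 55, beside 7.99% and 7.76% of all genes. The number down was 11 without S134A-GR vehicle replicate 1. TFCP2L1, a grainyhead-like factor, rose from 465 ± 21.6 to 2599.6 ± 102, 5.59-fold. CEBPB rose 2.29-fold and FOXO1, a factor that insulin signalling holds out of the nucleus, 2.81-fold. HES1, the repressor that Notch induces, was at 602, 685 and 609 in vehicle and 187, 229 and 232 with Dex, 2.93-fold lower. Nuclear receptors were called in 10 of 34 cases, 5 in each direction, beside 15.7% of all genes called. The orphan receptor NR4A1 rose from 188 ± 7.82 to 474 ± 40.0 and the thyroid hormone receptor gene THRA by 0.77 on the log2 scale. NR2F2 fell from 25189 ± 807 to 13040.0 ± 610.3, NR3C2, the mineralocorticoid receptor and nearest relative of NR3C1, from 473 ± 24.8 to 287 ± 7.40, and the vitamin D receptor VDR from 2792 ± 44.4 to 1904 ± 63.9. Of 31 coregulators and chaperones, 4 rose and 2 fell, beside 15.7% of all genes called, and 1 or 0 fell with any 1 library left out (0 where that was S134A-GR vehicle replicate 2 or Dex replicate 3). NCOA3, a coactivator of steroid receptors, rose 1.66-fold and PPP5C, a phosphatase of the chaperone complex, 1.16-fold.

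Clock genes were called in both directions. Of 24 tested, 6 rose and 4 fell, beside 7.99% and 7.76% of all genes. The number that fell was 2 without S134A-GR vehicle replicates 1 or 2 or Dex replicates 2 or 3. CRY2, a partner of the PER proteins, rose by 0.59 and NR1D2 by 0.38, whereas NR1D1, a haem receptor of the same family as NR1D2, fell by 0.51 and the repressor BHLHE40 fell by 0.82 on the log2 scale.

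Kinase pathway genes were called in both directions. Of 32 MAP kinase phosphatases and feedback inhibitors 7 rose and 8 fell, beside 7.99% and 7.76% of all genes. Beside DUSP1 and ERRFI1, RGS2, which limits signals of Gq-coupled receptors, rose 2.45-fold. LRIG1, which promotes breakdown of ERBB receptors, fell from 7764 ± 89.1 to 3866 ± 40.8, the Ras inhibitor SPRED3 fell by 0.71 and the Ras GTPase activator RASA1 fell by 0.61 on the log2 scale. In the p38 stress kinase list 7 of 33 rose and 3 fell, beside the same shares of all genes. The p38 activators MAP2K6 and MAP2K3 fell, MAP2K6 from 149.9 ± 8.36 to 26.2 ± 8.41 and MAP2K3 from 16096 ± 742 to 8709 ± 580.2. The stress proteins GADD45A and GADD45B rose 2.31-fold and 1.99-fold, and MKNK2, a kinase below p38 and ERK, 1.70-fold.

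In the NF-kB list 6 of 31 genes rose and 9 fell, beside 7.99% and 7.76% of all genes. NFKBIA, the inhibitor that holds NF-kB in the cytoplasm, was at 5004, 4964 and 4745 in vehicle and 12177, 11346 and 12052 with Dex, 2.42-fold. BCL3, a nuclear cofactor of NF-kB, fell 1.94-fold, the subunit RELB 1.63-fold, the inhibitor NFKBIE 1.54-fold and IRAK2, an adaptor below interleukin 1 and Toll-like receptors, by a log2 change of -0.59. Of 24 inflammatory mediators known to be repressed by Dex, 8 fell and 2 rose, beside 7.76% and 7.99% of all genes, and 14 did not pass. LIF, a cytokine of the same family as IL11, fell from 6353 ± 219.8 to 3494 ± 126. The 2 that rose were CCL20, a chemokine, with 33.0, 23.3 and 31.2 in vehicle and 104, 73.5 and 94.2 with Dex, and CSF3, the granulocyte growth factor, with 8079.6, 7811 and 7526 and 14695, 13206 and 14150.2. For both the groups did not overlap. IL18, among the 14, had values of 2856, 3042 and 2840.1 in vehicle and 2646, 2696 and 2592 with Dex (limma adjusted p = 0.262).

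In a list of 34 acute-phase and innate defence genes 7 rose and 2 fell, beside 7.99% and 7.76% of all genes. The number that rose was 3 or 4 without S134A-GR vehicle replicates 1 or 2 or Dex replicates 1 or 3. IL1R1, the signalling receptor of interleukin 1, rose 2.56-fold and LIFR, the LIF receptor, 1.94-fold, while TLR5, the flagellin receptor, fell 2.57-fold. SAA2, a near copy of SAA1 called by limma at 1.89, 2.03 and 5.35 in vehicle and 23.2, 5.25 and 15.1 with Dex, which overlap, was among the calls that those libraries decided. Of 39 interferon-induced genes 12 fell and 3 rose, beside 7.76% and 7.99% of all genes. The number that fell was 7 without S134A-GR vehicle replicates 1 or 2 or Dex replicate 3. OASL fell 1.92-fold, the RNA sensor gene DDX58 1.56-fold, the transcription factor IRF1 1.37-fold and IFIT1 1.36-fold, while EPSTI1 rose from 59.6 ± 18.2 to 257 ± 16.2.

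The urokinase, serpin and matrix protease list had 16 of 50 genes down and 6 up, beside 7.76% and 7.99% of all genes. PLAU, described above, fell most in this list. ADAM19, which sheds neuregulins, was at 9928, 9751 and 10402 in vehicle and 4482, 4485 and 4639 with Dex. ADAMTS9, which cleaves aggrecan and versican, rose 3.37-fold and the membrane metalloprotease MMP15 2.32-fold. In the matrix list 13 of 57 rose and 8 fell, beside 7.99% and 7.76% of all genes. LOX, which cross-links collagen and elastin, was at 7016, 7928 and 7326 in vehicle and 23027, 22470.2 and 22401 with Dex, 3.05-fold. CTGF, a matricellular protein, rose 2.03-fold, COL6A3 1.83-fold and fibronectin, FN1, 1.82-fold.

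Adhesion and cytoskeleton genes were called in both directions. In the list of integrins, focal adhesions and junctions 12 of 62 rose and 8 fell, beside 7.99% and 7.76% of all genes. In that of actin and contractile proteins 13 of 55 rose and 4 fell. In the latter list 2 fell with any 1 of S134A-GR vehicle replicate 2 and Dex replicates 1 and 3 left out. Scaled by library size only, edgeR called 12 up and 11 down in the first list and 13 up and 5 down in the second. PKP2, a desmosome plaque protein, was at 3060.5, 2964 and 2992 in vehicle and 11490.0, 10691 and 11171 with Dex, 3.70-fold. NEDD9, a focal adhesion scaffold, rose from 19.3 ± 1.30 to 99.3 ± 17.8 and TNS2, a tensin, 2.20-fold. CLDN1, a tight junction protein, fell from 46.8 ± 6.99 to 17.1 ± 7.24. RHOB, a small GTPase of endosomes and stress fibres, was at 1087, 1073 and 1053 in vehicle and 3803, 4459 and 4364 with Dex, 3.93-fold. DAAM2, a formin, rose from 34.0 ± 13.3 to 171 ± 29.1 and CDC42EP3, an effector of CDC42, 1.75-fold. LDB3, a protein of muscle Z discs, rose from 50.3 ± 10.6 to 299 ± 13.0. Of 33 targets and partners of YAP and TEAD, 15 rose and 4 fell, beside 7.99% and 7.76% of all genes. With either S134A-GR vehicle replicate 3 or the third Dex library left out, 2 fell. ANKRD1, with 13985, 14498 and 14630.0 in vehicle and 53386, 49075 and 48669 with Dex, CTGF and CYR61 (1.64-fold) rose, and so did the TEAD cofactor VGLL3 (1.83-fold) and the ligand TGFB2 (1.80-fold). Caveolae genes CAV1 and CAV2, used here as markers of the line, rose 1.52-fold and 1.31-fold, while CD44, a hyaluronan receptor, and LAMB3, a laminin chain, fell 1.43-fold and 1.52-fold.

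**Figure D3:**
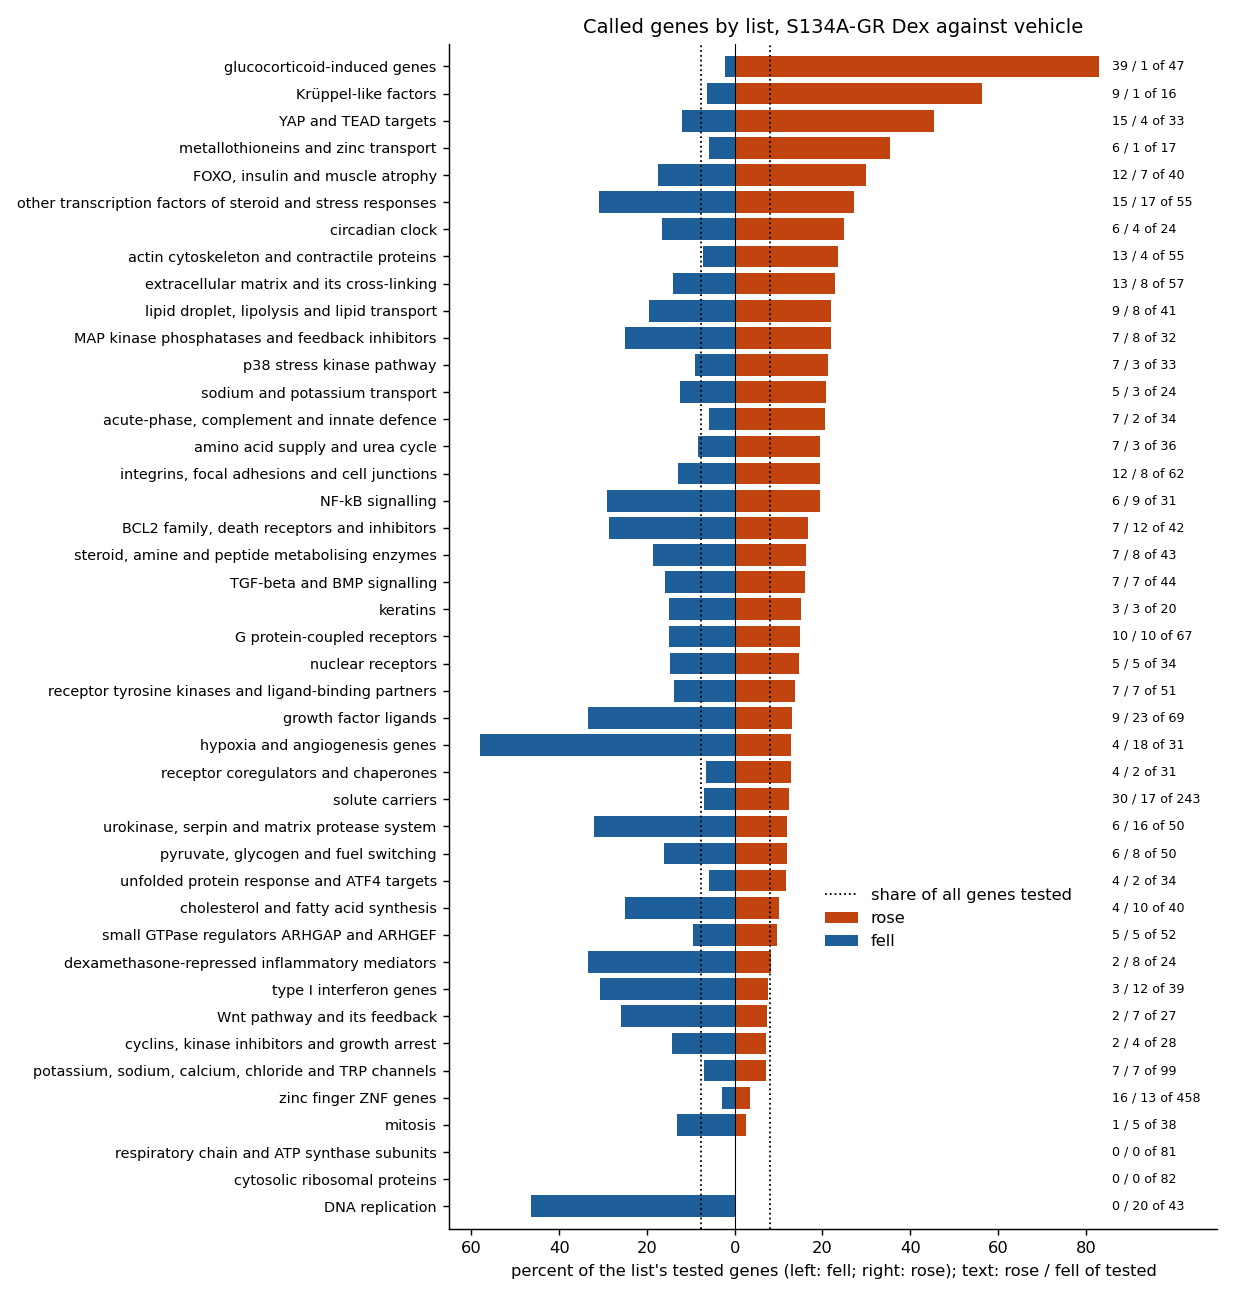
For each gene list, the percent of its tested genes that rose (right, red) or fell (left, blue) in S134A-GR cells, with the numbers of risen and fallen of tested genes at the right edge and dotted lines at the shares over all genes tested (7.99% rose, 7.76% fell). The glucocorticoid-induced genes have the longest red bar, 39 of 47, and the hypoxia and angiogenesis genes the longest blue bar, 18 of 31, with lists that share members.

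Of 69 growth factor ligands 23 fell and 9 rose, beside 7.76% and 7.99% of all genes. WNT7B was at 4004, 4078 and 4054 in vehicle and 1279.6, 1414 and 1387 with Dex, 2.97-fold lower. NRG2, a neuregulin, fell from 530.4 ± 56.3 to 193 ± 23.9. EDN2, ANGPTL4 and TGFB2 were among the ligands that rose. VEGFA, the main angiogenic ligand of KDR, was at 9636, 9930.3 and 10084 in vehicle and 4740.1, 4772 and 4761 with Dex, 2.08-fold lower, so that the ligand fell while its receptor rose. VEGFA belongs with NDRG1 (1.47-fold lower) and HK2 to 31 hypoxia and angiogenesis genes. Of these, 18 fell and 4 rose, beside 7.76% and 7.99% of all genes. With 1 of the 6 libraries left out, 12 to 15 fell. The 4 that rose were ANGPTL4, LOX, the growth inhibitor DDIT4 (1.64-fold) and EPAS1, which encodes HIF-2 alpha (1.80-fold), and the first 3 of them are also listed as glucocorticoid-induced or matrix genes. HIF1A itself had a log2 change of 0.11 (limma adjusted p = 0.243).

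Receptors at the cell surface and the proteins they bind were called in both directions. Of 67 G protein-coupled receptors 10 rose and 10 fell, beside 7.99% and 7.76% of all genes. When scaled by library size only 7 rose and 11 fell, and 6 rose when S134A-GR vehicle replicate 2 or Dex replicate 2 was left out. ADRA1B, an alpha-1 adrenergic receptor, was at 506, 457 and 452 in vehicle and 2521, 2446 and 2575 with Dex, 5.33-fold, and S1PR1, the receptor of sphingosine phosphate, rose from 112 ± 11.2 to 374 ± 33.2. In the list of receptor tyrosine kinases and their partners, ephrins among them, 7 of 51 rose and 7 fell. These counts stood beside the same shares of all genes, and 6 rose and 9 fell when scaled by library size only. The ephrin EFNB2 rose 2.28-fold and EFNA5 1.94-fold, while CSF1R, the receptor of macrophage growth factor, fell 2.01-fold, the ephrin receptor EPHB3 1.73-fold and ERBB3, a receptor of neuregulins, 1.73-fold.

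TGF-beta and BMP genes rose in 7 and fell in 7 of 44 cases, beside 7.99% and 7.76% of all genes. FSTL3, which binds activin, rose 2.57-fold and LTBP1, which stores TGF-beta in the matrix, 2.26-fold, while NOG, an extracellular BMP inhibitor, fell 2.31-fold and PMEPA1, a feedback inhibitor of TGF-beta, 1.97-fold. Wnt pathway genes fell in 7 and rose in 2 of 27 cases, beside 7.76% and 7.99% of all genes. DKK1, a secreted inhibitor that binds the coreceptor LRP5, was at 5363, 5244 and 5566 in vehicle and 31177, 32318 and 32425 with Dex, 5.93-fold. AXIN2, a negative feedback gene of the pathway, fell 1.74-fold and LRP5 1.44-fold, and LGR5 fell as given above.

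Among FOXO, insulin and atrophy genes 12 of 40 rose and 7 fell, beside 7.99% and 7.76% of all genes. The number that fell was 4 without S134A-GR vehicle replicate 1. IRS2, the adaptor that carries the insulin signal, was at 2988, 3058 and 3169 in vehicle and 9841, 11683 and 10846 with Dex, 3.51-fold. ARRDC2, an alpha-arrestin related to TXNIP, rose 2.28-fold and CITED2, which displaces HIF-1 from its coactivators, 1.85-fold. Sodium and potassium transport genes rose in 5 and fell in 3 of 24 cases, beside the same shares of all genes. SCNN1A and SGK1 were among those that rose, and NEDD4L, the ligase that removes sodium channels, had a log2 change of -0.44.

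Genes of the survival machinery were called in 19 of 42 cases, 7 up and 12 down, beside 7.99% and 7.76% of all genes. BCL2L1 and MCL1, which block apoptosis at mitochondria, rose from 29915 ± 761 to 53229.7 ± 1198 and from 39560.0 ± 422 to 68378 ± 1605. Their relative BCL2A1, an NF-kB target, fell from 44.9 ± 5.06 to 9.92 ± 3.86. In a separate list of 28 tested cyclins, kinase inhibitors and growth arrest genes 2 rose and 4 fell, beside the same shares of all genes, and 22 did not pass. The cell cycle inhibitor CDKN1A was at 5797, 5886 and 5501 in vehicle and 11074, 12151 and 12462 with Dex, 2.08-fold. CCND3 rose 1.53-fold, while CCND1, the other D-type cyclin named here, fell 1.42-fold, the inhibitor CDKN2C 1.36-fold and the antiproliferative gene BTG1 1.33-fold.

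Of 43 tested DNA replication genes 20 fell and 0 rose by limma, beside 7.76% and 7.99% of all genes, and 23 did not pass. Counting unadjusted p-values under 0.05 gave 25 genes. The other tools also found 0 risen, with 19 fallen in edgeR and 23 in DESeq2. GINS4, a subunit of the replicative helicase, fell from 5109 ± 63.5 to 3581 ± 116, the loading factor CDC6 fell by 0.43 on the log2 scale, ORC1 of the origin complex fell by 0.40, DTL fell by 0.37 and the transcription factor E2F1 fell by 0.33. The number that fell was 10 to 17 with 1 library left out, 12 without S134A-GR vehicle replicate 1 and 10 without vehicle replicate 3 or Dex replicates 2 or 3. In the mitosis list 5 of 38 fell, none of them by more than 1.5-fold, and 1 rose, the anaphase activator CDC20 (1.24-fold), a called share of 15.8% beside 15.7% of all genes. The calls of AURKA, CDC25A, CDC25C, KIF20A and KIF2C (log2 changes -0.16, -0.20, -0.19, -0.13 and -0.13) depended on single libraries: 0 to 4 fell with 1 library left out, and 0 where that was S134A-GR vehicle replicate 1 or Dex replicate 3.

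Cholesterol and fatty acid synthesis genes fell in 10 and rose in 4 of 40 cases, beside 7.76% and 7.99% of all genes. INSIG1, which retains the sterol sensor in the endoplasmic reticulum, fell 1.43-fold, HMGCS1, an early enzyme of the pathway, 1.31-fold, the sterol carrier STARD4 1.28-fold, the desaturase SCD 1.27-fold and the regulator SREBF1 1.25-fold, while FADS3 rose 1.67-fold. Of 34 genes of the unfolded protein response and ATF4 4 rose and 2 fell, a called share of 17.6% beside 15.7% of all genes, and 1 fell without S134A-GR vehicle replicates 2 or 3 or Dex replicates 2 or 3, 4 in DESeq2 and 5 when scaled by library size only. HERPUD1, which acts in degradation of misfolded proteins, rose 1.33-fold, the chaperone cofactor DNAJC3 1.23-fold and PPP1R15A, a phosphatase subunit that restores translation, fell 1.27-fold.

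Housekeeping families held few called genes or none, depending on the tool. Of 82 cytosolic ribosomal protein genes 0 were called by limma, beside 15.7% of all genes, and 3 had an unadjusted p under 0.05. In each of edgeR and DESeq2 1 rose. Of 81 respiratory chain and ATP synthase genes 0 were called by limma, and 2 had an unadjusted p under 0.05, while edgeR called 0 and DESeq2 2. Their median log2 changes were 0.02 and -0.01, and -0.01 and -0.04 when scaled by library size only. RPS18, singled out after its values were seen, was at 35829, 29851 and 23541 in vehicle and 456, 31286 and 527 with Dex (limma adjusted p = 0.069), so that 2 of the 3 Dex libraries stood far below the other 4, and it passed the test without S134A-GR Dex replicate 2.

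The S134A-GR response was compared with that of WT-GR cells in the same fit. Receptor form and cell line change together here, so the residue that S134A removes and the line cannot be told apart. Levels already differed with vehicle in both directions. COL6A3 was at 229 ± 13.4 in S134A-GR and 3243 ± 611 in WT-GR cells, and AKAP12 at 19058 ± 631 and 8586 ± 1040. Limma called 4455 genes (27.9%) in WT-GR cells and 1780 genes in both. Of the 733 genes called in S134A-GR but not in WT-GR cells, the difference between the responses passed the test for 6, so that for nearly all of them a call in one line and not in the other does not show a difference. Over all genes 66 (0.414%) passed the test of the difference at an adjusted p under 0.05 and 2790 at an unadjusted p under 0.05, and 54 of the 66 were also called in S134A-GR cells. This number rests on single libraries of both lines. It was 26 to 33 without any 1 S134A-GR library, 37 without WT-GR vehicle replicate 1, 26 without WT-GR vehicle replicate 2 and 1604 without WT-GR Dex replicate 3. WT-GR Dex replicates 2 and 3 held fewer genes with exactly 1 read (193 and 210) than the other 10 libraries (352 to 409), and without both of them the number was 2550.

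TNS4, a tensin that binds integrin tails, changed in opposite directions. It was at 238, 201 and 162 in S134A-GR vehicle and 653, 648 and 710.1 with Dex, and it fell from 4976 ± 109 to 2871 ± 157 in WT-GR cells. The difference of log2 changes was 2.55 ± 0.155 (limma adjusted p = 4.53e-06). SDPR, a caveolar protein, was at 1124, 1067 and 1156 and 9012, 9479 and 9908 in S134A-GR cells and rose from 3531 ± 123 to 13567 ± 348 in WT-GR cells, a difference of 1.14 ± 0.0723 (limma adjusted p = 4.53e-06). EDN2 rose from 176 ± 14.5 to 1371 ± 153 and ALPP from 655 ± 67.6 to 3909 ± 262 in WT-GR cells, with differences of 1.63 and 1.41 (limma adjusted p = 0.00309 and 0.00599). For SDPR, EDN2 and ALPP S134A-GR cells had the lower mean with vehicle and also with Dex. DKK1 and LOX also gained more in S134A-GR cells, by 0.49 and 0.69 (limma adjusted p = 0.00244 and 0.000677), and ERRFI1 by 0.43 from an S134A-GR vehicle level of 32770.1 ± 739.8 beside 80531 ± 3154 in WT-GR cells.

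Other genes rose in both lines but less in S134A-GR cells. STOM, the membrane protein stomatin, was at 1886, 2058 and 2027 and 2445, 2481 and 2447 in S134A-GR cells and rose from 1892 ± 89.4 to 4715 ± 344 in WT-GR cells, a difference of -1.01 ± 0.0880 (limma adjusted p = 0.000158). GATSL3, a sensor of arginine in the mTORC1 pathway, rose from 642 ± 38.1 to 1225 ± 43.2 beside 655 ± 82.3 to 2425 ± 226, a difference of -0.96 (limma adjusted p = 0.00635). FKBP5 had a difference of -0.38 (limma adjusted p = 0.023), which was lost without WT-GR vehicle replicate 2 or any S134A-GR library, left out one at a time. TSC22D3 and KLF9 had differences of -0.07 ± 0.0751 and -0.09 ± 0.135 (limma adjusted p = 0.65 and 0.76), and no difference was detected for them.

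**Figure D4:**
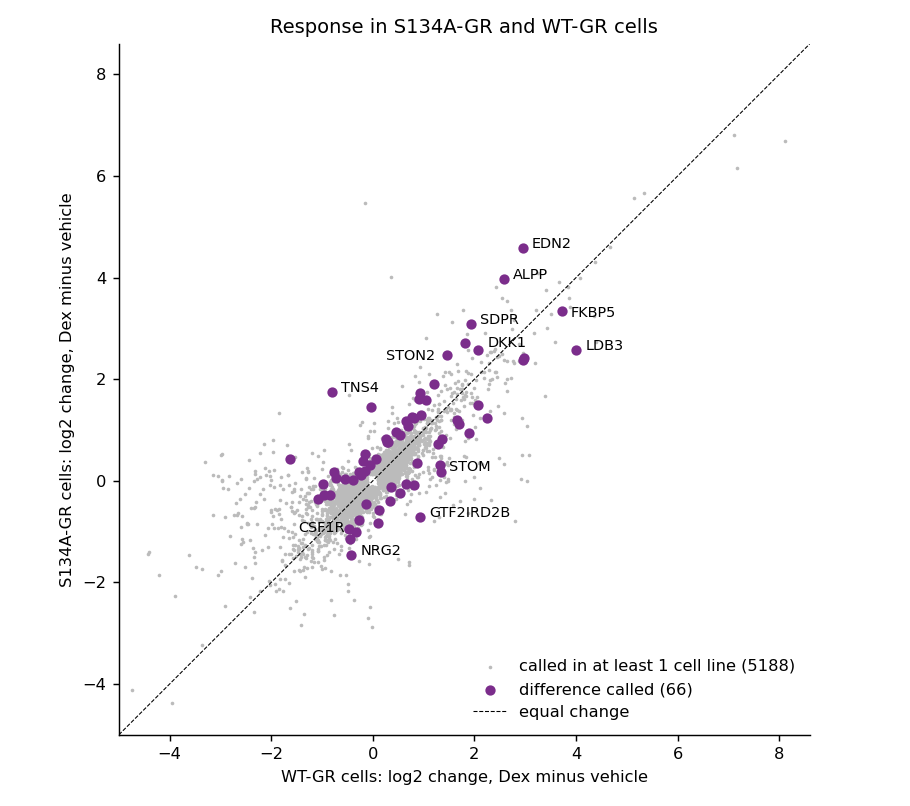
Log2 change, Dex minus vehicle, of WT-GR cells (x axis) against that of S134A-GR cells (y axis) for the 5188 genes called in at least 1 line (grey) and the 66 genes whose difference of responses passed the test (purple), with a dashed line of equal change. TNS4 lies at -0.79 on the x axis and 1.75 on the y axis, SDPR, EDN2, ALPP and DKK1 lie above the line and FKBP5, LDB3 and STOM below it.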

How the data were processed

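The deposited files hold 1 signal value per gene and library, called normalized in the headers of the vehicle files, and the values themselves show read counts divided by a library size factor, since 100% of them gave whole reads within 0.01. The tools named are FastQC 0.11.7, featureCounts, Subread and DESeq2 1.22.2, with hg38, per the submitters' processing notes, and the aligner is not given in the sources used here. Genes of the Dex files were named by the same line of the vehicle files: correlations with the vehicle mean were 0.989 to 0.991 by line and -0.00388 to -0.00304 by deposited name, and 99 of 99 windows of 200 lines matched best at the same line.

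In R 4.3.3, log2(value + 1) was tested with limma 3.58.1 and its trended variance prior, with all 12 libraries in 1 fit, 1 coefficient per group, two-sided p-values and a Benjamini-Hochberg threshold of 0.05. Scripts were tested on simulated data. Alternatives were edgeR 4.0.16 and DESeq2 1.42.0 on the recovered reads, library size scaling, pseudocounts of 0.5 and 5, other filters on low values (a value of at least 50, or none), the 6 libraries alone, array weights, a replicate block and leaving out libraries. Depth was 56.4 to 100.6 M reads. Genes were named by a rule. It took the 15 largest rises and falls by log2 change with no overlap and a higher mean of at least 100. It also took the 10 largest gains and losses in reads at 2-fold or more, again with no overlap, and genes switched on. From each list came up to 6 called members (10 for families) and 2 uncalled. The rule also took the 12 largest differences from WT-GR cells. The line and cell type markers, RPS18, ADAM8 and EVA1A were named outside it, and some genes that met it are not reported here. The comparison, its genes and all lists were chosen with earlier results of these data known.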

Additional observations from a re-analysis of the deposited data

Results flagged for a closer look

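Among the genes named here, 21 responded differently to Dex in S134A-GR and WT-GR cells by the interaction term of the limma fit (adjusted p under 0.05). The values are differences of log2 changes, S134A-GR minus WT-GR. The difference was above 0 for 11 genes, TNS4 (2.55), EDN2 (1.63), SLC2A14 (1.47), ALPP (1.41), SDPR (1.14), STON2 (1.02), CCNE2 (0.71), LOX (0.69), DKK1 (0.49), ERRFI1 (0.43) and PLIN2 (0.35). It was below 0 for the other 10, GTF2IRD2B (-1.65), LDB3 (-1.44), NRG2 (-1.03), ATOH8 (-1.02), STOM (-1.01), GATSL3 (-0.96), CSF1R (-0.68), ADRA1B (-0.55), ARRDC2 (-0.46) and FKBP5 (-0.38).

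The differences of TNS4, EDN2, ALPP, SDPR, LOX, DKK1, GTF2IRD2B, STOM and GATSL3 passed with each of the 12 libraries left out in turn, and that of ERRFI1 with 10 of the 12. The others passed in 1 to 7 of the 12, with CCNE2 at 1 and ATOH8, STON2, ARRDC2 and PLIN2 at 2. SLC2A14 and GTF2IRD2B have near-identical copies, which leaves their counts uncertain. Within S134A-GR cells the 3 Dex and 3 vehicle values of CCNE2, a cyclin of S phase entry, were 1667, 1398 and 1319.5 and 1854, 1881 and 1865, and its own call was lost without any 1 library except Dex replicate 1. What WT-GR Dex replicates 2 and 3, which hold fewer genes with 1 read, contribute to these differences was not tested beyond leaving them out.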

How the results depend on the processing

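The number of genes called for Dex in S134A-GR cells, 2513, stayed within 1.5 times under 17 of 18 alternatives and was 5116 with array weights (2438 higher, 2678 lower). With 1 library left out it was 1798 to 2042 (942 to 1058 higher, 856 to 984 lower). edgeR with TMM called 2528, DESeq2 3021, library size scaling 2551 (1109 higher, 1442 lower) and the 6 S134A-GR libraries alone 3439. The number of differing responses, 66, was 506 with DESeq2, 2854 with array weights, 2550 without WT-GR Dex replicates 2 and 3 together, and 26 to 1604 with 1 library left out. Causes of these shifts were not tested. With a replicate block 2083 genes were called for Dex and 7 for the difference. Deviations of same-numbered S134A-GR libraries correlated at 0.0075 to 0.051, and those of vehicle and Dex libraries with other numbers at -0.051 to 0.0097. With 3 libraries per group, these values cannot decide whether replicate numbers pair the samples. Of 234 named called genes 221 kept their call under every alternative and 13 lost it with at least 1 library left out. By level, 5.17% of genes at 10 to 100 normalized reads in vehicle were called, with a median SE of 0.42 on the log2 scale, and 19.95% at 1000 to 10000, with 0.07.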

Other observations

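Gene families beyond the chosen pathways were also taken by name pattern. Of 243 tested solute carriers 30 rose and 17 fell, beside 7.99% and 7.76% of all genes. SLC26A2, a sulfate transporter, was at 2919, 3153 and 3123 in vehicle and 12124, 10413 and 10119 with Dex, 3.55-fold. SLC16A12, a creatine transporter, rose 3.79-fold, SLC45A1 2.37-fold, SLC22A15 2.18-fold and SLC19A2, which imports thiamine, 1.85-fold. Among 99 ion channel genes 7 rose and 7 fell, a called share of 14.1% beside 15.7% of all genes. The potassium channel subunit KCNMB4 rose 2.03-fold and KCNIP3, which binds potassium channels, 1.54-fold. The channel counts were 3 or 4 on the side that moved with 1 library left out, namely 4 risen without S134A-GR vehicle replicate 2 and 3 or 4 fallen without vehicle replicates 1 or 3 or any Dex replicate.

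Of 458 tested genes with a ZNF symbol 16 rose and 13 fell, a called share of 6.33% beside 15.7% of all genes. ZNF608 rose from 1973 ± 92.0 to 4625 ± 114, and ZNF474, ZNF114 and ZNF485 had log2 changes of 2.57, 1.15 and 0.99. With 1 library left out, 10 or 11 rose and 5 to 9 fell. Among 20 keratins 3 rose and 3 fell, beside 7.99% and 7.76% of all genes. Scaled by library size only, 3 rose and 5 fell. KRT7, a keratin of simple epithelia, rose from 27802 ± 407 to 50675 ± 4582 and KRT80 1.24-fold, while KRT79 fell 2.13-fold and KRT15 1.41-fold. Of 52 ARHGAP and ARHGEF regulators of small GTPases 5 rose and 5 fell, beside 7.99% and 7.76% of all genes, and 4 rose and 8 fell when scaled by library size only. Among them were ARHGAP31 (1.09) and ARHGAP40 (0.71), which rose, and ARHGAP26 (-0.54) and ARHGAP29 (-0.53), which fell, on the log2 scale.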
